A study of Mus musculus with 12 samples.

Results

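HGF and EGF receptor signalling was followed through 10 genes: the ligands Hgf, Tgfa and Hbegf, the protease gene Hgfac, the receptor genes Met, Egfr, Erbb3 and Erbb2, and the receptor inhibitors Errfi1 and Lrig1. They were selected by symbol, and all 10 were found among the 54532 genes of the deposited table. The tissue was whole liver of wild-type mice of strain C57/BL6J, measured by poly(A) RNA-seq in 12 libraries. The sham operation and the times 3, 6 and 12 h after 70% partial hepatectomy had 3 libraries each, and the submitters asked which transcripts change in the phase that prepares the remaining lobes for growth. Age and sex are not given in the sources used here, no hour is given for the sham livers, and the labels do not state whether each library is a different mouse. P-values therefore measure the spread between these libraries, which may be technical.

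HGF is secreted as an inactive single chain, is cut into its active form by proteases such as the HGF activator encoded by Hgfac, and signals through the receptor tyrosine kinase MET. EGFR binds TGF-alpha (Tgfa), HB-EGF (Hbegf) and other ligands and pairs with its relatives ERBB2, which has no known ligand of its own, and ERBB3, which binds neuregulins and has little kinase activity. ERRFI1 binds and inhibits the kinase domain of EGFR, LRIG1 promotes the breakdown of ErbB receptors, and both receptor systems are known as growth signals for hepatocytes in liver regeneration.

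Library totals lay between 15573405 and 17199639 counts. One sham library, replicate 1, differed from its group: 11.9% of its counts were mitochondrially encoded, against 5.52% to 8.49% in the other 11 libraries. The chi-square per degree of freedom between its counts and those of sham replicates 2 and 3 was 129 and 160, against 11.4 between replicates 2 and 3. For replicate 3 of the 6 h group the labels disagree, with 6 h in the title, which was followed here, and 7 h in the time field. The hepatocyte gene Alb was at 15573 FPKM or more in every library. Levels are given as the deposited FPKM, fragments normalised to gene length and to a library size that follows median-ratio size factors. Differences are log2 values from edgeR's quasi-likelihood test with their standard error (SE). A gene is called at a Benjamini-Hochberg adjusted p under 0.05 over the 11451 genes tested. Each result was repeated under 24 alternatives, which include leaving out each library.

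Upstream sequences are shown for the members that hold a match to one of the less common promoter motifs searched, to show the stretch where their transcripts start. They are RefSeq sequences on GRCm38.p6, written 5′ to 3′ on the gene's strand. Of the 10 members, 8 had a window of 250 bases before to 50 bases after a transcript start, 10 windows in all. Errfi1 and Hgf each had a second start, whose window held none of the motifs searched and is not shown. For Errfi1, the 250 bases before the start at chromosome 4, position 150855070 (chr4:150854820-150855069, plus strand) hold a CRE (TGACGTCA) 51 bases and a TATA box (TATAAA) 28 bases before it, both in capitals. This start lies inside Errfi1 as annotated in the deposited table, where the gene begins at position 150853919. For Hgf, the 250 bases before the start at position 16553495 (chr5:16553245-16553494, plus strand) hold a forkhead motif (TGTTTAC) on the opposite strand, whose reverse complement is in capitals, 24 bases before that start. For Hgfac, the same stretch (chr5:35041259-35041508, plus strand) holds a STAT motif (TTCNNNGAA) in capitals, 167 bases before the start. For Met, 30-base sites are shown around an AP-1 motif (TGANTCA) 54 bases and an E-box (CACGTG) 126 bases before the RefSeq start (chr6:17463892-17463921 and chr6:17463819-17463848, plus strand), with the motif in capitals. Both sites lie inside Met as annotated in the deposited table, where the gene begins at position 17463800.
Errfi1 upstream: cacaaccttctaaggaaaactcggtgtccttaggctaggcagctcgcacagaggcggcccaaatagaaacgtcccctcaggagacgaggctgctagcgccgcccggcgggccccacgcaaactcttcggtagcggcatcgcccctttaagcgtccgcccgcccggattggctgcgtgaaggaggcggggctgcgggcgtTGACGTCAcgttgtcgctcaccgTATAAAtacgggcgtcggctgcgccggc
Hgf upstream: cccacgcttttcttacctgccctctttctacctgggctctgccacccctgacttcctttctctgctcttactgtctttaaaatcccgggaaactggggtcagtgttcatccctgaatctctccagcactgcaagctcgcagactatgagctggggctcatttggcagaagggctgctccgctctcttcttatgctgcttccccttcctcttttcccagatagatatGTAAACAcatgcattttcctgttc
Hgfac upstream: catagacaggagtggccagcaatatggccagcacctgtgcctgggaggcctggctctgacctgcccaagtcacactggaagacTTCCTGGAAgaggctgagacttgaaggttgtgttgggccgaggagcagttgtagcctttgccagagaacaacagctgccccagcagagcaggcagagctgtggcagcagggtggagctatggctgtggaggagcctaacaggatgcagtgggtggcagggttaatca
Met AP-1 site: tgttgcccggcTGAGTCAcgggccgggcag
Met E-box site: gggacgaacagaCACGTGctggggcgggta
Over all 32851 RefSeq windows of 300 bases, searched on both strands, 1.79% held the CRE, 13.6% the TATA letters, 3.65% the forkhead motif, 8.3% the STAT motif, 7.81% the AP-1 motif and 7.15% the E-box. The GC box (GGGCGG), in 35.7% of all windows, was found in the windows of Egfr, Tgfa, Met, Lrig1 and Errfi1. These are matches of letters only.

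Of the 10 genes, 8 passed the filter of 1 FPKM or more in at least 3 of the 12 libraries, while Erbb2 and Hbegf stayed under 1 FPKM in every library and are given by their counts. Receptor transcripts moved apart after resection: Erbb3 fell at all 3 times, Met fell at 3 and 6 h and rose again by 12 h, and Egfr rose at 6 h. Among ligands and their activator, Hgf rose at 3 and 12 h, Tgfa rose at 12 h and Hgfac fell at 12 h. Errfi1 rose at 3 and 6 h, and Lrig1 was called in no comparison.

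**Figure D1:**
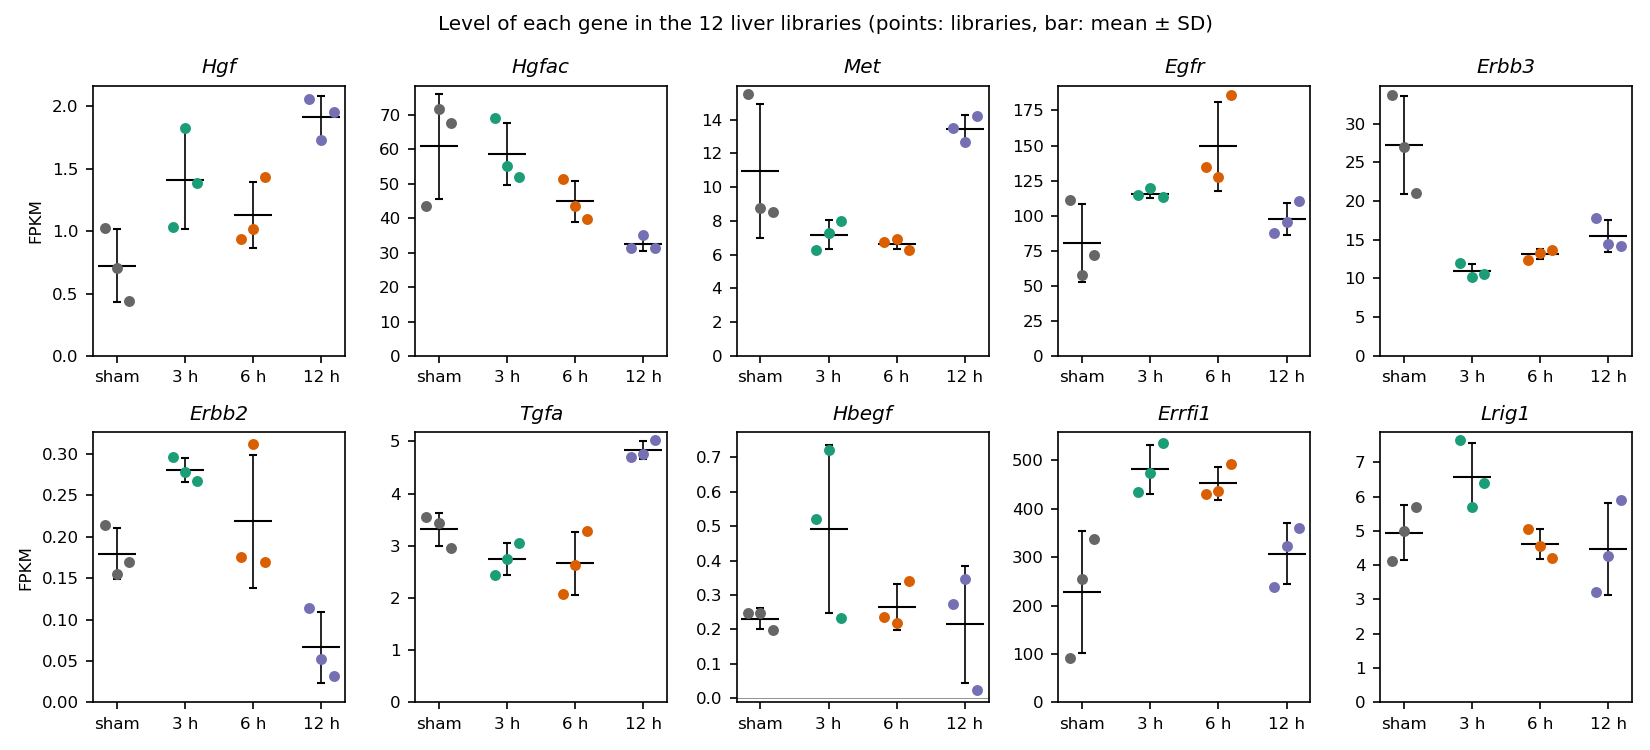
Level of the 10 genes in each of the 12 libraries, in FPKM on a linear axis from 0 per gene. Points are libraries in replicate order and bars are the mean ± SD of 3. Erbb3 lies lower in all 9 resected livers than in the 3 sham livers, and Met and Tgfa are highest or near highest at 12 h.

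In each comparison with sham, 4 of the 8 tested genes were called, 2 higher and 2 lower. Of all tested genes, 21.6% were called at 3 h (9.81% higher, 11.7% lower), 35.0% at 6 h (16.8% and 18.2%) and 28.8% at 12 h (13.5% and 15.3%). The FPKM ranges of the 2 groups did not overlap for 6 of the 8 at 3 h and 4 of the 8 at 6 h and at 12 h, beside 36.4%, 43.9% and 38.6% of all tested genes. The median log2 difference of the 8 was 0.14 at 3 h, -0.24 at 6 h and 0.28 at 12 h, beside -0.02, -0.01 and -0.02 over all tested genes. These comparisons share the sham libraries. Hgf, called higher at 3 and 12 h, passed the filter through resected livers, so counts of called genes that include it are not independent of that filter. The count at 3 h rested on single libraries, with 2 called without sham replicate 2 or without 3 h replicate 1, and 1 called without 3 h replicate 2 or replicate 3. In those 4 fits 15.4% to 18.03% of all tested genes were called.

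Between the times, 12 h against 3 h had 4 of 8 called (3 higher, 1 lower), where 36.0% of all tested genes were called (17.8% higher, 18.2% lower). At 12 h against 6 h, 2 of 8 were called, a share like the 24.7% over all tested genes, and without sham replicate 1 it was 6 of 8, where 36.7% of all tested genes were called. Ranges did not overlap for 6 of 8 at 12 h against 3 h, 7 of 8 at 12 h against 6 h and 4 of 8 at 6 h against 3 h, and for 55.2%, 46.8% and 34.6% of all tested genes. At 6 h against 3 h, 0 of 8 were called by edgeR, where 8.63% of all tested genes were. By edgeR's unadjusted p under 0.05 that count was 1 (Lrig1), and 23.8% of all tested genes passed it. It was 0 with DESeq2, limma and limma voom and 1 in the edgeR fit of only the 6 libraries compared. The test for any difference over the 4 groups called 6 of 8, where 50.0% of all tested genes were called, and left out Errfi1 (adjusted p = 0.0559) and Lrig1 (adjusted p = 0.114). Over the 9 resected livers against sham, 5 of 8 were called and 32.2% of all tested genes. That count was 3 without sham replicate 2, 3 h replicate 2, 6 h replicate 3 or 12 h replicate 3, where 24.99% to 30.4% of all tested genes were called.

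**Figure D2:**
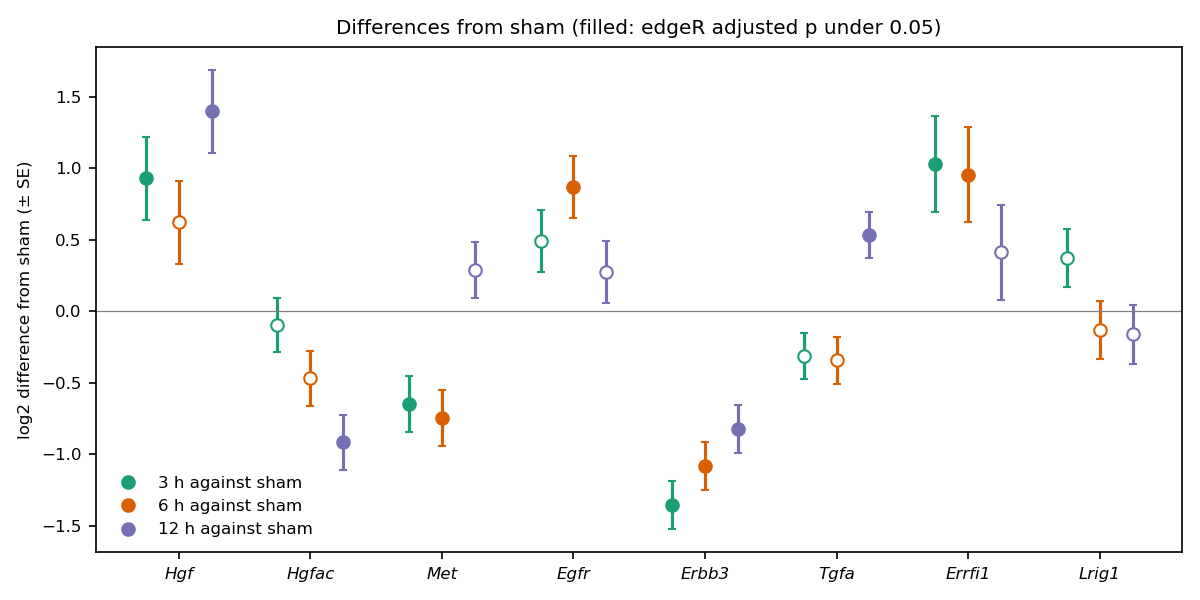
Log2 difference from sham at 3, 6 and 12 h for the 8 tested genes, with bars of ± 1 SE and filled points for an edgeR adjusted p under 0.05. Erbb3 lies at -1.36, -1.08 and -0.82, and Hgf reaches 1.40 at 12 h.

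Hgf (ENSMUSG00000028864, chr5:16553495-16620152), which encodes the ligand of MET, had a low level that was higher after resection. In sham livers it was 1.02, 0.703 and 0.441 FPKM, a mean of 0.723 ± 0.292 (SD, n = 3), on 61 to 125 counts per library. At 3 h it was 1.03, 1.82 and 1.39 FPKM (1.41 ± 0.398), and at 6 h 0.938, 1.02 and 1.43 FPKM (1.13 ± 0.266). At 12 h the 3 libraries gave 2.06, 1.73 and 1.96 FPKM (1.91 ± 0.167). Every 12 h library lay above every sham and 6 h library, while the lowest 3 h library was barely above the highest sham library. Among the sham libraries only replicate 1 reached 1 FPKM, so Hgf passed the filter through resected livers. Its rises are therefore not independent of that filter. Hgf rose at 12 h by 1.40 ± 0.29 (SE, log2, adjusted p = 0.0031). That call was kept under all 24 alternatives, the fit with no filter among them, with differences from 0.77 to 1.73. At 3 h it rose by 0.93 ± 0.29 (adjusted p = 0.0356), a call lost under 8 of the 24 alternatives (adjusted p from 0.00115 to 0.153). Among the fits leaving out 1 library, it was lost without sham replicate 2 or 3 (0.92 and 0.67) and without 3 h replicate 2 or 3 (0.70 and 0.96). The difference at 6 h was 0.62 ± 0.29 (adjusted p = 0.119), and 0.95 without sham replicate 1, where it was called. From 6 h to 12 h the difference was 0.78 ± 0.28 (adjusted p = 0.0624), called under 9 of the 24 alternatives, among them without sham replicate 1 or 3 (0.78 each) and without 6 h replicate 3 (0.98).

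HGF is made in liver mainly by stellate cells and also by sinusoidal endothelial cells, and their markers moved too. The summed level of 12 stellate cell markers was 57.6 to 79.1 FPKM in sham livers. It reached 99.6 to 132 FPKM at 3 h, then 76.7 to 81.2 at 6 h, and 52.2 to 63.5 FPKM was the range at 12 h. The sum of 10 endothelial markers was 30.3 to 36.8 FPKM in sham livers, then 46.9 to 60.9, 36.8 to 40.6 and 25.8 to 31.5. None of these markers was at 0 in any library. At 3 h, where both sums were highest, 4 of the 11 tested stellate markers and 5 of the 10 endothelial markers were called higher. Of all tested genes, 9.81% were called higher there. At 12 h, where Hgf was highest, both ranges reached below the sham range and overlapped it. At that time the markers were split, with 2 called higher and 2 lower in each list, beside 13.5% and 15.3% of all tested genes. Lrat (1.02 ± 0.33) and Rgs5 (0.82 ± 0.20) of the stellate list and Lyve1 (1.41 ± 0.37) and Wnt2 (1.08 ± 0.29) of the endothelial list were higher (log2 ± SE). Colec11 (-1.17 ± 0.19) and Reln (-0.50 ± 0.15), and Oit3 (-1.12 ± 0.18) and Kdr (-0.97 ± 0.22), were lower. In whole liver, a change in the number of cells of a type and a change in RNA per cell cannot be told apart, and the part of either in the Hgf differences at 3 and 12 h was not tested.

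Hgfac (ENSMUSG00000029102, chr5:35041509-35048461), the gene of the HGF activator, a serine protease secreted by hepatocytes, stepped down late. Sham livers had 43.5, 71.7 and 67.6 FPKM (60.9 ± 15.2), and 3 h livers 69.1, 55.1 and 52.0 FPKM (58.7 ± 9.10). Levels were 51.4, 43.6 and 39.8 FPKM at 6 h (44.9 ± 5.92) and 31.4, 35.0 and 31.3 FPKM at 12 h (32.6 ± 2.14). The 12 h libraries lay below every other library. Hgfac fell at 12 h by 0.92 ± 0.19 (log2, adjusted p = 0.0034) and between 3 h and 12 h by 0.82 ± 0.19 (adjusted p = 0.00544), both under all 24 alternatives. At 6 h the difference from sham was -0.47 ± 0.19 (adjusted p = 0.0739). Without sham replicate 1 it was -0.67 and called, and over the 24 alternatives its adjusted p ran from 0.00307 to 0.251. The step from 6 h to 12 h was -0.45 ± 0.19 (adjusted p = 0.106), and only without sham replicate 1 among the fits leaving out 1 library was it called, at -0.45. In the pooled comparison of resected livers with sham it fell by 0.49 ± 0.15 (adjusted p = 0.0236), a call lost without sham replicate 2 (-0.36) or sham replicate 3 (-0.41).

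The sum of hepatocyte markers was also lower at 12 h, but single markers were split. The summed level of 8 of them was 37264 to 39214.5 FPKM in sham livers and 26406 to 28859 FPKM at 12 h. After 3 and 6 h every library exceeded the sham range, with minima of 41888 and 39691 FPKM. At 12 h, 3 of the 8 were called lower and 1 higher, beside 15.3% and 13.5% of all tested genes. The median log2 difference of the 8 was -0.18 there. Alb, the most abundant of them, fell by 0.65 ± 0.13 (log2, adjusted p = 0.00312). The part of the lower marker sum in the Hgfac difference was not tested. With Hgf higher and Hgfac lower, the ratio of Hgfac to Hgf FPKM was 99.2 ± 55.4 in sham livers, 44.9 ± 19.5 at 3 h, 41.7 ± 13.5 at 6 h and 17.2 ± 2.69 at 12 h. The highest ratio at 12 h (20.3) lay below the lowest in any other group (27.7, in 6 h replicate 3).

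Tgfa (ENSMUSG00000029999, chr6:86195223-86275719), an EGFR ligand made as a membrane-bound precursor, was highest at 12 h. Levels were 3.55, 3.44 and 2.95 FPKM in sham livers (3.31 ± 0.321), 2.44, 2.75 and 3.05 at 3 h (2.75 ± 0.302) and 2.08, 2.64 and 3.28 at 6 h (2.67 ± 0.601). At 12 h they were 4.71, 4.77 and 5.02 FPKM (4.83 ± 0.166). All 12 h libraries lay above all 9 others, and the sham, 3 h and 6 h ranges overlapped. Tgfa rose by 0.85 ± 0.16 between 3 h and 12 h (adjusted p = 0.00176) and by 0.88 ± 0.16 between 6 h and 12 h (adjusted p = 0.00189), both under all 24 alternatives. Against sham it rose by 0.53 ± 0.16 at 12 h (adjusted p = 0.0247), and this call was lost under 5 of the 24 alternatives (adjusted p from 0.00446 to 0.0938). They were the fits without sham replicate 2 (0.56), sham replicate 3 (0.46), or any one 12 h library (0.55, 0.54 and 0.51 without replicates 1, 2 and 3). At 3 and 6 h the differences from sham were -0.31 ± 0.16 (adjusted p = 0.203) and -0.34 ± 0.16 (adjusted p = 0.127), and the latter was called at -0.52 without 6 h replicate 3.

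Hbegf (ENSMUSG00000024486, on chromosome 18), the gene of heparin-binding EGF-like growth factor, another membrane-bound EGFR ligand, was near the limit of detection. Its counts were 10, 11 and 9 in sham livers, 20, 26 and 8 at 3 h, 8, 8 and 11 at 6 h and 12, 15 and 1 at 12 h. The 3 h libraries disagreed among themselves, at 0.520, 0.722 and 0.235 FPKM, and replicate 3 lay within the sham range of 0.197 to 0.249 FPKM. Over the summed counts, with library totals scaled by edgeR's TMM factors, the ratio of 3 h to sham was 2.10 (95% Clopper-Pearson interval 1.32 to 3.40). That interval covers counting error only, and in the edgeR fit with no filter the difference was 1.09 ± 0.63 (log2, adjusted p = 0.344). At 6 h and 12 h the ratios to sham were 1.12 (0.640 to 1.95) and 0.930 (0.535 to 1.61), and no difference was detectable at this depth. The summed counts were 27 at 6 h and 30 in sham livers, so the direction of the 6 h ratio came from the TMM scaling.

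Met (ENSMUSG00000009376, chr6:17463800-17573980), the HGF receptor gene, dipped and came back. Its levels were 15.5, 8.78 and 8.55 FPKM in sham livers (10.96 ± 3.97), where replicate 1 stood far above the other libraries of the group. They were 6.30, 7.29 and 7.97 FPKM at 3 h (7.19 ± 0.838), 6.73, 6.94 and 6.30 at 6 h (6.66 ± 0.326) and 13.5, 12.7 and 14.2 at 12 h (13.5 ± 0.785). All 6 libraries at 3 and 6 h lay below all sham libraries and below all 12 h libraries. Met rose by 1.03 ± 0.20 between 6 h and 12 h (adjusted p = 0.00222) and by 0.94 ± 0.20 between 3 h and 12 h (adjusted p = 0.00305), both under all 24 alternatives. Against sham it fell by 0.74 ± 0.20 at 6 h (adjusted p = 0.00982), a call lost only in the fit of the 6 libraries compared (-0.76, adjusted p = 0.0512, the highest of the 24), and the difference was -0.41 without sham replicate 1. At 3 h it fell by 0.65 ± 0.20 (adjusted p = 0.0314), which was lost under 9 of 24 alternatives (adjusted p from 0.00508 to 0.140). Among the fits leaving out 1 library, it was lost without sham replicate 1 (-0.32) or any one 3 h library (-0.55, -0.66 and -0.71 without replicates 1, 2 and 3). Without 3 h replicate 2 or 3 the difference was no smaller. There 15.5% and 15.4% of all tested genes were called, against 21.6% with all libraries.

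The comparison of Met at 12 h with sham also turned on sham replicate 1. With all libraries the difference was 0.29 ± 0.20 (adjusted p = 0.291). Without that library it was 0.62 and was called (adjusted p = 0.00103, in a range of 0.00101 to 0.671 over the 24 alternatives). At 12 h Met lay above sham replicates 2 and 3 and below sham replicate 1 in every library.

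Egfr (ENSMUSG00000020122, chr11:16752203-16918158), the EGF receptor gene and the most abundant receptor transcript of the set, peaked at 6 h. Levels were 111, 57.4 and 72.1 FPKM in sham livers (80.2 ± 27.8) and 115, 119 and 113 at 3 h (116 ± 3.31). They were 135, 128 and 186 FPKM at 6 h (149 ± 31.8) and 87.7, 95.5 and 110 at 12 h (97.8 ± 11.4). Every 6 h library lay above every sham, 3 h and 12 h library. Egfr rose at 6 h by 0.87 ± 0.22 (adjusted p = 0.00671), under all 24 alternatives and with differences from 0.57 to 1.17. The 6 h library tagged 7 h was the highest, and without it the difference was 0.68. At 3 h the difference was 0.49 ± 0.22 (adjusted p = 0.127) and at 12 h 0.28 ± 0.22 (adjusted p = 0.365). Both were called without sham replicate 1, at 0.79 and 0.58. From 6 h to 12 h the difference was -0.59 ± 0.22 (adjusted p = 0.0604), called without sham replicate 1 or sham replicate 2 at the same -0.59. Over their 24 alternatives the adjusted p ran from 0.00122 to 0.347 at 3 h and from 0.00409 to 0.819 at 12 h. The pooled rise over resected livers was 0.55 ± 0.18 (adjusted p = 0.0339), and that call was lost without sham replicate 2 (0.36), sham replicate 3 (0.48), 3 h replicate 2 (0.54), 6 h replicate 3 (0.48) or 12 h replicate 3 (0.52). An antisense gene, Egfros, overlaps Egfr with at most 119 counts in a library, against 12090 or more for Egfr.

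Erbb3 (ENSMUSG00000018166, chr10:128567523-128589652, minus strand), the gene of the neuregulin-binding ErbB receptor, was lower after resection at every time measured. Its levels were 33.7, 26.9 and 21.1 FPKM in sham livers (27.2 ± 6.31) and 12.0, 10.2 and 10.6 at 3 h (10.9 ± 0.949). They were 12.4, 13.3 and 13.7 FPKM at 6 h (13.1 ± 0.631) and 17.8, 14.5 and 14.2 at 12 h (15.5 ± 2.01). All 9 resected livers lay below all sham livers, and the 3 h, 6 h and 12 h ranges followed each other upward without overlap. Erbb3 fell by 1.36 ± 0.17 at 3 h (adjusted p = 0.000122), by 1.08 ± 0.17 at 6 h (adjusted p = 0.000267) and by 0.82 ± 0.17 at 12 h (adjusted p = 0.00282). These 3 calls held under all 24 alternatives, and without sham replicate 1 the differences were -1.18, -0.90 and -0.65. From 3 h to 12 h it rose by 0.53 ± 0.17 (adjusted p = 0.0256). This recovery was not called without 3 h replicate 2 (0.49), 3 h replicate 3 (0.50) or 12 h replicate 1 (0.42), nor without the filter on low values (0.47), with adjusted p from 0.00478 to 0.105 over the 24 alternatives.

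Erbb2 (ENSMUSG00000062312, chr11:98412470-98437716) was scarcely transcribed, at 0.0322 to 0.311 FPKM. Its counts were 19, 15 and 17 in sham livers, 25, 22 and 20 at 3 h, 13, 25 and 12 at 6 h and 11, 5 and 3 at 12 h. Every 12 h library held fewer counts than every other library. The TMM-scaled ratio of 12 h to sham was 0.371 (0.207 to 0.640), to 3 h 0.243 (0.138 to 0.409) and to 6 h 0.304 (0.170 to 0.526), with intervals for counting error only. In the edgeR fit with no filter, 12 h against 3 h gave -2.08 ± 0.59 (adjusted p = 0.00403), 12 h against 6 h -1.72 ± 0.60 (adjusted p = 0.0344) and 12 h against sham -1.42 ± 0.60 (adjusted p = 0.0977). Mien1, on the opposite strand, overlaps Erbb2 with up to 203 counts in a library. The strand used in counting is not given in the sources used here, so reads in the overlap could belong to either gene.

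The make-up of the ErbB receptor transcripts shifted with these changes. Of the summed FPKM of Egfr, Erbb3 and Erbb2, Egfr made up 76.6%, 67.9% and 77.3% in the sham livers, a mean of 73.9% ± 5.22 (SD, n = 3). It made up 91.2% ± 0.803 at 3 h, 91.6% ± 1.35 at 6 h and 86.1% ± 2.83 at 12 h, and all resected livers (83.0% or more) lay above all sham livers. Erbb3 went from 25.9% ± 5.21 in sham livers to 8.61% ± 0.793, 8.22% ± 1.29 and 13.8% ± 2.79. Erbb2 was 0.233% or less in every library. The ratio of Egfr to Met was 7.38 ± 0.968 in sham livers, 16.3 ± 2.03 at 3 h, 22.6 ± 6.00 at 6 h and 7.26 ± 0.661 at 12 h. That ratio was alike in the 3 sham livers (6.54 to 8.43), although sham replicate 1 had the highest level of both genes in its group. These shares and ratios compare transcripts per length and say nothing of protein.

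**Figure D3:**
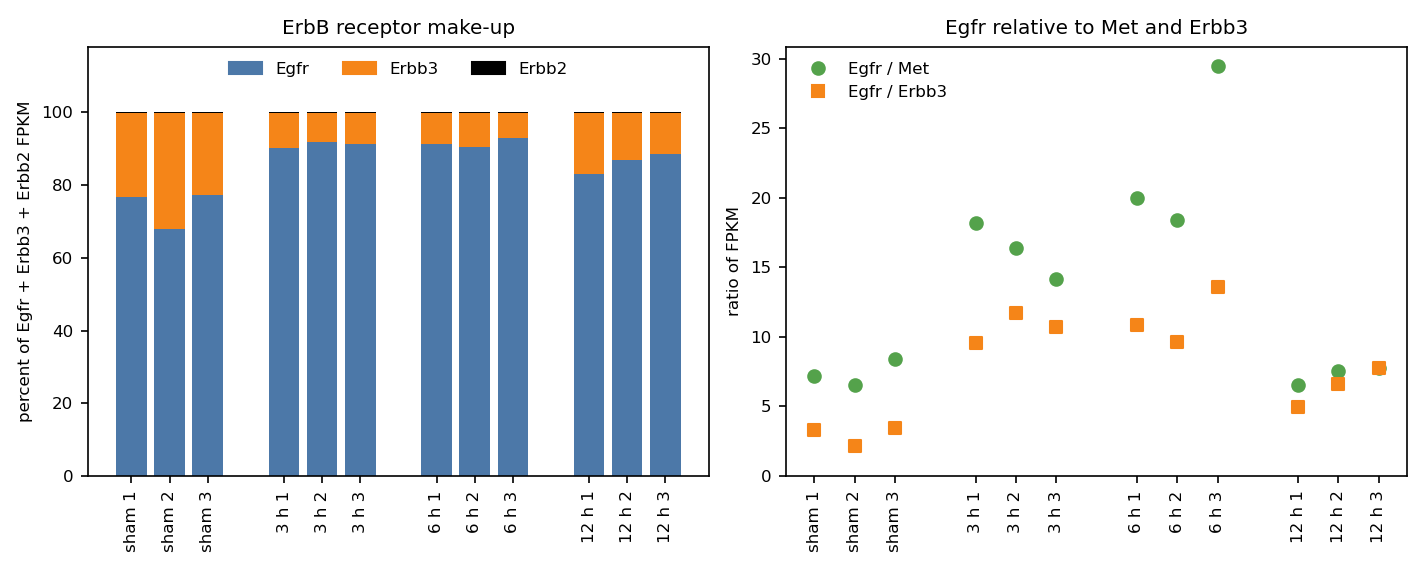
Left, percent of the summed Egfr, Erbb3 and Erbb2 FPKM held by each gene in the 12 libraries. Right, the ratio of Egfr to Met and of Egfr to Erbb3 FPKM in the same libraries on a linear axis from 0. Egfr holds 67.9% to 77.3% in sham livers and 83.0% or more in resected livers, and the Egfr to Met ratio is high at 3 and 6 h only.

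Errfi1 (ENSMUSG00000028967, chr4:150853919-150868892), also called Mig6, whose protein inhibits the EGFR kinase and which is induced by growth factor and stress signals, was the most abundant transcript of the set. Sham livers differed widely, at 91.2, 255 and 338 FPKM (228 ± 126), with replicate 1 far below the others. Levels were 434, 474 and 535 FPKM at 3 h (481 ± 50.8), 430, 436 and 492 at 6 h (452 ± 34.1) and 238, 322 and 361 at 12 h (307 ± 62.5). All libraries at 3 and 6 h lay above all sham and 12 h libraries, and the 12 h and sham ranges overlapped. Errfi1 rose by 1.03 ± 0.33 at 3 h (adjusted p = 0.0426) and by 0.96 ± 0.33 at 6 h (adjusted p = 0.0396). Both calls were near the threshold, and 11 and 10 of the 24 alternatives lost them (adjusted p from 1.88e-07 to 0.122 at 3 h and from 1.91e-06 to 0.168 at 6 h).

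Leaving out sham replicate 1, the library with the low Errfi1 level, kept both calls but moved the differences to 0.65 at 3 h and 0.58 at 6 h. The 3 h call was lost without sham replicate 2 (1.12) or any one 3 h library (1.12, 1.04 and 0.96 without replicates 1, 2 and 3). It was also lost without any one 6 h library or without 12 h replicate 2 or 3 (each 1.03), which enter only through the shared spread. The 6 h call was lost without sham replicate 2 (1.04), any one 6 h library (0.99, 0.98 and 0.89 without replicates 1, 2 and 3), 3 h replicate 2 or 3 or 12 h replicate 2 (each 0.96). At 12 h the difference was 0.41 ± 0.33 (adjusted p = 0.381), and 0.03 without sham replicate 1. Without that library the decline of Errfi1 from 3 h to 12 h (-0.62) and from 6 h to 12 h (-0.54) was called, while with all libraries the same values had adjusted p of 0.162 and 0.256. An antisense gene, 1700045H11Rik, overlaps Errfi1 with at most 42 counts in a library.

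Lrig1 (ENSMUSG00000030029, chr6:94604529-94700158, minus strand), which encodes a membrane protein that marks ErbB receptors for breakdown, was called in no comparison. It was at 4.11, 5.01 and 5.71 FPKM in sham livers (4.94 ± 0.801) and 7.64, 5.71 and 6.38 at 3 h (6.58 ± 0.981). It was at 5.07, 4.56 and 4.21 FPKM at 6 h (4.61 ± 0.434) and 3.23, 4.27 and 5.90 at 12 h (4.47 ± 1.35). The lowest 3 h library was barely above the highest sham library, and the 12 h libraries spread widest. The difference from 3 h to 12 h was -0.53 ± 0.21 (adjusted p = 0.0576), and 9 of the 24 alternatives called it (adjusted p from 0.0144 to 0.211), among them the fits without sham replicate 1 (-0.53) and without 12 h replicate 3 (-0.78). Against sham it was 0.37 ± 0.20 at 3 h (adjusted p = 0.224), -0.13 ± 0.21 at 6 h (adjusted p = 0.67) and -0.16 ± 0.20 at 12 h (adjusted p = 0.599), and none of the 24 alternatives called any of these. Slc25a26, on the opposite strand, overlaps Lrig1 with up to 141 counts in a library, against 319 or more for Lrig1.

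**Figure D4:**
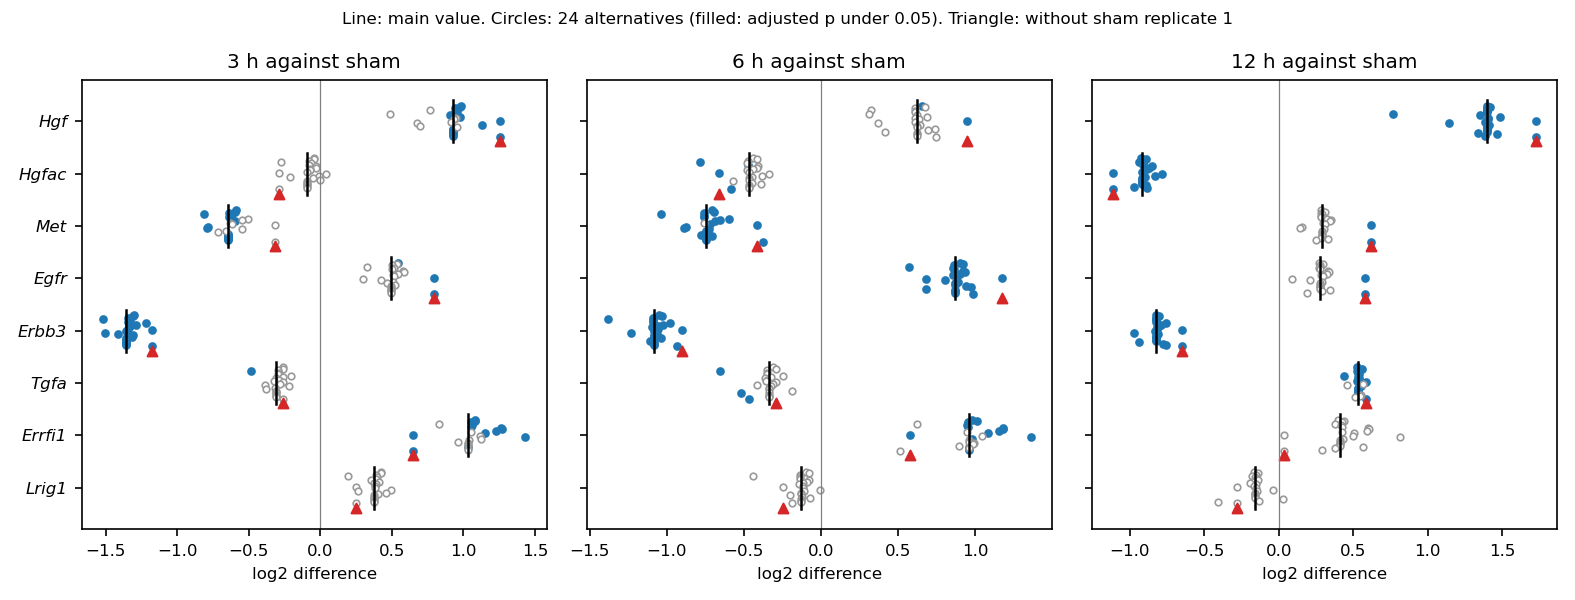
Log2 difference from sham of the 8 tested genes under the 24 alternatives. Black lines mark the value reported, circles the alternatives (filled where the adjusted p was under 0.05) and red triangles the fit without sham replicate 1. Erbb3 is filled throughout at all 3 times, whereas the 3 h values of Hgf, Met and Errfi1 mix filled and open circles.

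Compared per length, the order of levels was nearly the same in all 4 groups. In sham livers it ran Errfi1, Egfr, Hgfac, Erbb3, Met, Lrig1, Tgfa, Hgf, Hbegf and Erbb2. There Errfi1 and Egfr overlapped, as did Egfr and Hgfac, and Hbegf and Erbb2. At 3 h the ranges of Met and Lrig1 overlapped as well as those of Hbegf and Erbb2. At 12 h Erbb3 and Met overlapped, and Tgfa had a higher mean than Lrig1, with overlapping ranges. Errfi1 was at 228 and Hgf at 0.723 FPKM on average in sham livers, so the inhibitor of EGFR and the ligand of MET stood at opposite ends of the tested genes.

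For each member called over the 4 groups, the most alike of the other tested protein-coding genes were found by Pearson's r of log2 library-scaled counts (edgeR CPM) across the 12 libraries, which share depth and group differences. Egfr was most like Tbk1 (r = 0.975) and Rlim (0.947), both highest at 6 h, with Tbk1 at 7.64 ± 1.67 FPKM in sham livers and 11.2 ± 1.25 at 6 h. Erbb3 was most like Arrdc3 (0.971) and Zfhx4 (0.957), and Arrdc3 went from 29.2 ± 16.7 FPKM in sham livers to 2.72 ± 0.0623 at 6 h and 7.22 ± 1.06 at 12 h. Met was most like Inpp5f (0.980) and Prkacb (0.975), which also dipped at 3 and 6 h, Prkacb from 5.57 ± 1.62 to 3.59 ± 0.355 and 3.73 ± 0.190 FPKM. Hgfac was most like Col18a1 (0.980) and Abhd16a (0.972), Hgf most like Picalm (0.943) and Riok2 (0.942), and Tgfa most like Fgfr1op (0.953) and Ccdc122 (0.942). Among the pairs of these 6 genes and Errfi1 and Lrig1, Met and Tgfa were most alike (r = 0.836), and Erbb3 and Errfi1 were most opposed (r = -0.875). Sham replicate 1 held the lowest Errfi1 level and the highest Erbb3 and Met levels of the 12 libraries. No correlation without that library is given here.

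The other genes of the pathway were taken from 7 lists of 97 symbols, of which 72 passed the filter. Of these 72, 23 were called at 3 h, 27 at 6 h and 20 at 12 h against sham. Over all tested genes the shares called were 21.6%, 35.0% and 28.8%. The count at 12 h was 32 without sham replicate 1 and 13 without 12 h replicate 3, where 46.0% and 18.4% of all tested genes were called. The counts of single lists stand beside all-gene shares called higher and lower of 9.81% and 11.7% at 3 h, 16.8% and 18.2% at 6 h, and 13.5% and 15.3% at 12 h. Among the other ErbB ligands and ERBB4, 1 of 10 passed the filter: Nrg4, a neuregulin that binds ERBB4. Egf, Areg, Ereg, Btc, Epgn, Nrg1, Nrg2, Nrg3 and Erbb4 did not, with Btc reaching 1.55 FPKM, Erbb4 0.972 FPKM and Areg 0.541 FPKM in their highest libraries. Nrg4 was at 0.930, 0.947 and 0.668 FPKM in sham livers, 4.62, 5.70 and 5.16 at 3 h, 7.49, 7.65 and 14.6 at 6 h and 1.88, 3.03 and 3.92 at 12 h. All resected livers lay above all sham livers. Nrg4 rose by 2.56 ± 0.31 at 3 h (adjusted p = 7.75e-05), by 3.52 ± 0.31 at 6 h (adjusted p = 3.32e-06) and by 1.78 ± 0.30 at 12 h (adjusted p = 0.000883). Every sham library was under 1 FPKM, so Nrg4 passed the filter through resected livers only, and its rises are not independent of that filter.

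Among 8 tested genes of HGF activation and its inhibitors, 3 were called higher and 1 lower at both 3 h and 6 h, and 2 higher and 4 lower at 12 h. Klkb1, which encodes plasma prekallikrein, whose active form can cleave HGF, was at 45.2 ± 4.42 FPKM in sham livers, 10.8 ± 1.53 at 6 h and 11.4 ± 1.62 at 12 h. It fell by 2.10 ± 0.18 at 6 h (adjusted p = 2.2e-06) and was also lower at 12 h (adjusted p = 6.89e-06). Plaur, the urokinase receptor gene, went from 0.157 ± 0.0857 to 1.02 ± 0.229 FPKM at 3 h. Tmprss2, a membrane serine protease gene, went from 0.582 ± 0.139 FPKM in sham livers to 1.49 ± 0.454 at 3 h and 1.33 ± 0.381 at 12 h. Plaur and Tmprss2 were under 1 FPKM in every sham library, so both passed the filter through resected livers only. Neither their rises nor the counts of higher genes in this list are independent of that filter. The protease genes F12, F2 and Hpn, named here after their values were seen, were the other 3 called lower at 12 h, where Hgfac was also lower.

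The HGF family and MET partners had 7 tested genes. Sdc1, a heparan sulphate proteoglycan gene, was at 47.7 FPKM on average in sham livers and 81.0 to 87.5 FPKM on average at the 3 times, with log2 differences of 0.83, 0.83 and 0.75, each called. Fas, whose protein can bind MET, rose by 0.88 ± 0.20 at 3 h (adjusted p = 0.00756) and by 0.83 ± 0.20 at 6 h (adjusted p = 0.0063). With library totals as the scaling, the 6 h calls of Sdc1 (0.53) and Fas (0.52) were lost, and none of the other alternatives lost them. Mst1, which encodes the HGF-like ligand of a MET relative, fell by 0.68 ± 0.15 at 12 h (adjusted p = 0.00573), in the same livers as Hgfac.

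Of 24 tested receptor adaptors and RAS, ERK and AKT core genes, 2 were higher and 6 lower at 3 h, 3 higher and 7 lower at 6 h, and 2 higher and 4 lower at 12 h, the last a share near that of all tested genes. Grb7, an adaptor that binds ErbB receptors, fell by 1.40 ± 0.18 at 3 h and 1.39 ± 0.18 at 6 h and was also lower at 12 h (adjusted p = 0.000354). Plcg1, a phospholipase recruited by EGFR and MET, fell by 1.34 ± 0.13 at 3 h and by 1.55 ± 0.14 at 6 h, and its difference at 12 h was 0.02. Gab1, the main docking protein of MET, fell by 0.96 ± 0.21 at 3 h (adjusted p = 0.00546), when Met itself was low.

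Of 21 tested genes of receptor turnover and damping, 5 were higher at 3 h, 5 higher and 1 lower at 6 h, and 1 higher and 2 lower at 12 h. The shares called at 6 and 12 h were under those of all tested genes. Ptpn1, a phosphatase that acts on receptor tyrosine kinases, rose by 1.79 ± 0.23 at 3 h and 1.55 ± 0.23 at 6 h (adjusted p = 0.000149 and 0.000192). Lrig2, a relative of Lrig1, rose by 1.16 ± 0.28 at 3 h (adjusted p = 0.00915), while Lrig1 itself was not called. Outside the 3 and 6 h groups, Lrig2 reached 1 FPKM in sham replicate 1 only, so it passed the filter through the groups where it was higher. Neither its rise nor the counts of higher genes in this list are independent of that filter. Spry4 and Spred2, both inhibitors of RAS and ERK signalling, fell at 12 h by 0.97 ± 0.22 and 0.76 ± 0.16. Of 6 tested genes that follow ERK activity, 2 were called higher at 3 h, 1 higher at 6 h, and 1 higher and 1 lower at 12 h. The gene called lower at 12 h was Spry4, and Dusp6 (0.32), Phlda1 (0.21), Etv5 (-0.14) and Epha2 (-0.41) were not called there. Ccnd1, the cyclin D1 gene, was highest at 12 h, at 26.2 ± 4.17 FPKM against 3.11 ± 1.32 in sham livers, a rise of 3.06 ± 0.32 (adjusted p = 2.58e-05). Of 6 tested genes of ErbB ligand shedding, Rhbdf2, which encodes a cofactor of the sheddase ADAM17, rose by 1.14 ± 0.23 at 6 h (adjusted p = 0.0016). Timp3, an inhibitor of that sheddase, rose by 1.35 ± 0.26 at 3 h (adjusted p = 0.00237). Timp3 reached 1 FPKM in the 3 h libraries only, so it passed the filter through the group where it was higher. Its rise is described only and is not independent of that filter.

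**Figure D5:**
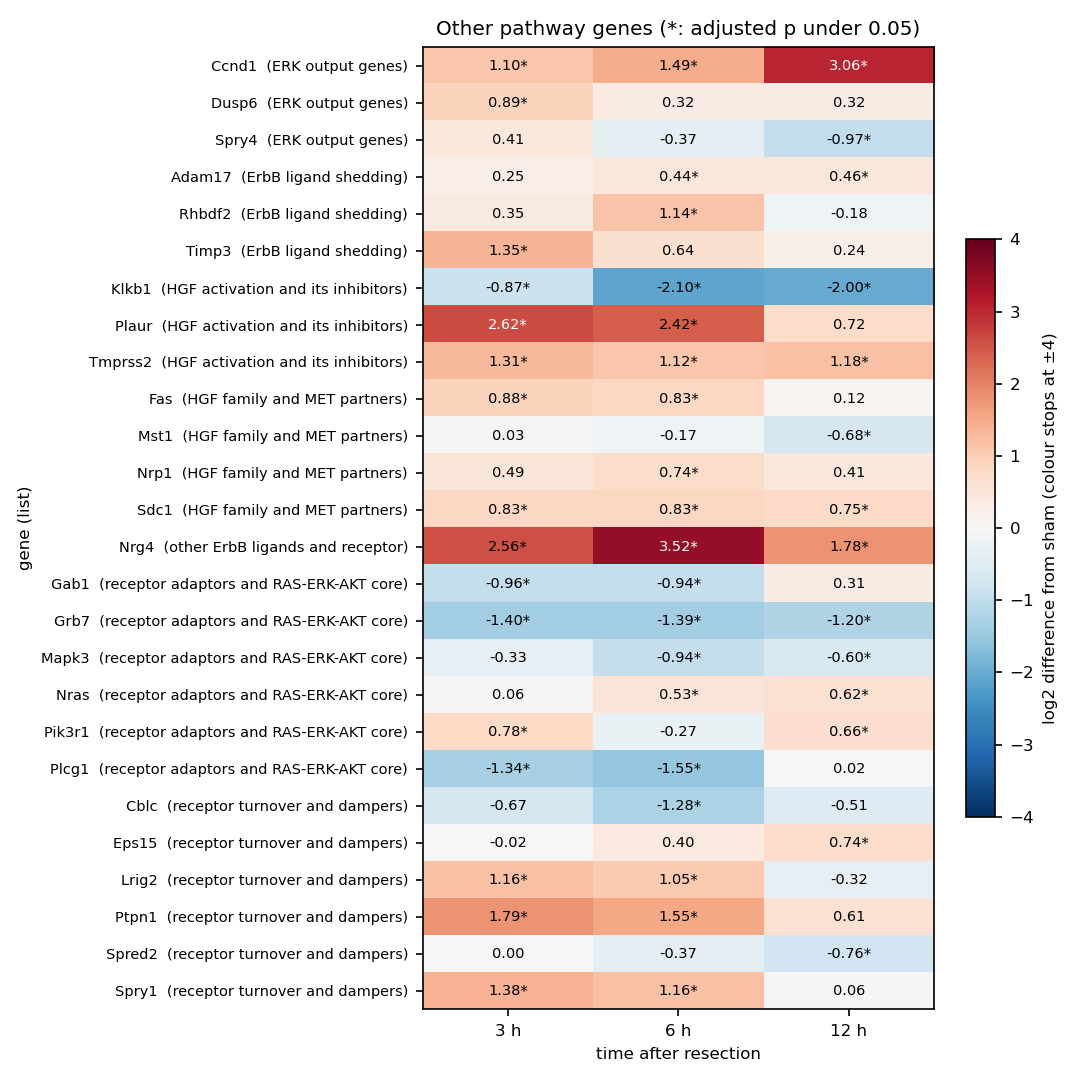
Log2 difference from sham of the other pathway genes named by rule, one row per gene with its list in brackets and one column per time. Stars mark an edgeR adjusted p under 0.05, and the colour scale stops at 4 in either direction. Nrg4 is higher at all 3 times, Grb7 is lower at all 3 times, and Plcg1 is lower at 3 and 6 h only.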

How the data were processed

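Poly(A) RNA of 12 mouse liver libraries was prepared with TRIzol and a NEBNext Ultra kit, per the labels' protocols. The submitters' processing notes name the build GRCm38 (mm10) and, without role or order, DESeq2 1.20.0, featureCounts 1.5.0-p3, HISAT2 2.0.5, fastp and CASAVA 1.8, and the strand used in counting is not given in the sources used here. The table deposited by the authors holds a whole-number count per gene and library, per the file headers and the values. Its FPKM, also deposited by the authors, equal counts per unit of gene length over a library size that follows median-ratio size factors, within 0.1% for 100% of the values of 100 counts or more. No sample column was left unused (0).

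Testing was limited to the 11451 of 54532 genes that reached 1 FPKM in at least 3 libraries. edgeR's quasi-likelihood test with TMM scaling was fitted to the counts of all 12 libraries with 4 groups, and p-values were adjusted over all tested genes. The SE is the size of the log2 difference divided by the root of F. Precision rests on library totals of 15573405 to 17199639 counts, and the biological coefficient of variation was 20.6%. Erbb2 and Hbegf, under the filter, are given as ratios of summed counts over TMM-scaled library totals, with 95% Clopper-Pearson intervals. The members and the lists of pathway and marker genes were chosen with earlier results of these data known. All 10 members are named, then up to 3 called genes per pathway list and comparison with sham (those with the largest differences), and the 2 genes most correlated with each member called over the 4 groups. One gene of the pathway lists is counted with its list and is not reported here by itself. Correlations used edgeR log2 CPM with a prior count of 2. Promoter windows and sequences are from RefSeq (GRCm38.p6).

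The alternatives were no filter (1 count in any library), edgeR's filterByExpr, median-ratio scaling, library totals, TMM without the 1% most abundant genes, DESeq2, limma on log2(FPKM + 1) and on log2(FPKM + 0.1), limma voom, a fit of only the 6 libraries compared, a block for the replicate number, each library left out, and both sham replicate 1 and 6 h replicate 3 left out. The comparison of all resected livers with sham was not run on only 6 libraries. The test was checked on simulated counts. Tools were R 4.3.3, edgeR 4.0.16, limma 3.58.1 and DESeq2 1.42.0.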

Additional observations from a re-analysis of the deposited data

Results flagged for a closer look

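For 4 of the 8 tested genes, the difference from sham was itself different between times. The test was edgeR's test of 1 time against another, in which the sham libraries cancel out. It called 36.0% of all tested genes at 12 h against 3 h and 24.7% at 12 h against 6 h. Between 3 h and 12 h the difference from sham changed by 0.53 (log2) for Erbb3, by 0.94 for Met and by 0.85 for Tgfa, all upward, and by -0.82 for Hgfac. Between 6 h and 12 h it changed by 1.03 for Met and by 0.88 for Tgfa. For Met the direction against sham went from lower (7.19 FPKM at 3 h and 6.66 at 6 h, sham 10.96) to higher (13.5 FPKM at 12 h), where the last was not called. For Hgfac the change stood beside a lower sum of hepatocyte markers at 12 h, whose part in it was not tested.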

How the results depend on the processing

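Over the members and named pathway genes, 2416 values were recomputed, of which 105 lost a call, 57 gained one and 16 changed direction, none of the last in a called value. Those 16 were in Hgfac, Lrig1 and Tgfa. Hgfac at 3 h against sham was 0.041 without sham replicate 2 and -0.29 to 0.041 with 1 library left out. Lrig1 at 12 h against 6 h was 0.26 with library totals, 0.0023 in the 6 libraries compared, and 0.041 and 0.15 without 6 h replicate 1 and 12 h replicate 1 (-0.28 to 0.15 with 1 left out). At 12 h against sham it was 0.025 without 12 h replicate 1 (-0.41 to 0.025 with 1 left out). In resected livers against sham it was -0.14 with library totals, -0.092 without sham replicate 1, -0.05 without 12 h replicate 3 and -0.07 with sham replicate 1 and 6 h replicate 3, the doubted libraries, both left out. Tgfa at 6 h against 3 h was 0.04 and 0.12 without 3 h replicate 3 and 6 h replicate 1 (-0.20 to 0.12 with 1 left out). In resected livers it was 0.0015 with filterByExpr and 0.0085, 0.0029 and 0.011 without sham replicate 1, 3 h replicate 1 and 6 h replicate 1 (-0.11 to 0.011 with 1 left out).

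The members called at 3 h went from 4 to 2 with limma on log2(FPKM + 1), 1 in the 6 libraries compared and 1 to 4 with a library left out. At 6 h they went from 4 to 2 in the 6 libraries compared, and at 6 h against 3 h from 0 to 1. At 12 h against 6 h they went from 2 to 6 with no filter, 4 with library totals, 4 with DESeq2, 6 in the 6 libraries compared and 6 without both doubted libraries, and were 2 to 6 with 1 library left out. Over resected livers they were 3 to 5 with 1 left out. Pathway genes called at 12 h were 13 to 32 with 1 library left out and 38 without both doubted libraries. At 12 h against 6 h they were 24, and 11 to 33 with 1 left out. At 6 h against 3 h they were 6, then 10 in the 6 libraries compared and 2 to 14 with 1 left out. Fits of 6 libraries or without 1 library have fewer samples. For the other settings the cause was not tested.

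With the replicate number as a block, the members called at 3 h were 2 in place of 4, as Hgf (0.93, adjusted p = 0.0622) and Met (-0.62, adjusted p = 0.057) were lost, and pathway genes called at 6 h against 3 h were 2 in place of 6. No other member's call changed. Samples of the same number correlated at -0.255 to 0.173 in their deviations from the group mean, and 1 of 12 libraries was most like one of its own number, so they are taken to share only a number.

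Scaling by library totals moved the median of all genes by -0.18 at 3 h, -0.31 at 6 h, -0.16 over resected livers, -0.13 at 6 h against 3 h, 0.29 at 12 h against 6 h and 0.16 at 12 h against 3 h. In the same order, the share of calls that were higher went from 45.5% to 25.3%, 48.1% to 22.1%, 44.4% to 25.5%, 51.5% to 30.1%, 49.0% to 84.4% and 49.5% to 69.4%. Depth limits Erbb2 and Hbegf, which held at most 26 counts per library.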

Other observations

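The inhibitors can be set against the level of Egfr itself. The ratio of Errfi1 to Egfr FPKM was 0.821 in sham replicate 1 and 4.44 and 4.69 in sham replicates 2 and 3. It was 4.16 ± 0.506 (SD, n = 3) at 3 h, 3.08 ± 0.396 at 6 h and 3.12 ± 0.352 at 12 h. The 6 h range (2.65 to 3.42) and the 12 h range (2.72 to 3.37) lay below the 3 h range (3.78 to 4.74). They also lay below sham replicates 2 and 3, while sham replicate 1 lay below all other libraries. The ratio of Lrig1 to Egfr was 0.0678 ± 0.0270 in sham livers, 0.0569 ± 0.00936 at 3 h, 0.0320 ± 0.00816 at 6 h and 0.0450 ± 0.00836 at 12 h. The 6 h range (0.0226 to 0.0377) lay below the 3 h range and overlapped that of the sham livers through sham replicate 1 (0.0370).

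Markers of other cells in the tissue also differed between groups, and their part in the members' levels was not tested. Summed over 10 Kupffer cell and macrophage markers, the level was 98.2 to 143 FPKM in sham livers and 141 to 165 FPKM at 3 h. It was 94.6 to 119 FPKM at 6 h, and 71.4 to 91.9 FPKM was the range at 12 h. The sum of 8 neutrophil markers was 1.72 to 2.34 FPKM in sham livers and 13.4 to 14.3 FPKM at 3 h. It was 9.22 to 19.5 FPKM at 6 h, and 6.54 to 8.69 FPKM was the range at 12 h, with Mpo at 0 in all 12 libraries. For 7 cholangiocyte markers it was 24.7 to 27.6, 31.8 to 41.9, 34.1 to 42.0 and 27.5 to 34.7 FPKM. For 5 red blood cell markers it was 93.0 to 119, 149 to 176, 87.9 to 116 and 47.9 to 69.2 FPKM.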
